A study of Mus musculus with 10 samples.

Results

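Genes for the proteins of the mitochondrial ribosome were followed in 10 populations of immortalized mouse embryonic fibroblasts, cultured connective tissue cells that have been made to divide without limit. The genes were all protein-coding genes in the deposited count table whose symbol is Mrpl or Mrps followed by a digit, where Mrpl stands for the large and Mrps for the small subunit. There were 78 such genes among 26401, of which 49 are named for the large and 29 for the small subunit. The 5 high heteroplasmy populations and the 5 low heteroplasmy populations all carried m.5024C>T, a C-to-T change in mitochondrial DNA, on the strain label C57Bl/6N. Heteroplasmy means that mutant and normal mitochondrial genomes lie in the same cells, and no population without the mutation was analysed here. All populations grew without treatment in a glucose-rich medium with serum and uridine, and polyadenylated RNA was sequenced from 1 library each. Each population has its own clone number, and the sources used here give neither its mutant share nor the way the clones were derived. Libraries are called high 1 to high 5 and low 1 to low 5 after the replicate numbers of the labels. The comparison asks how nuclear genes of this machine differ with the load of a mutation in the genome that the machine serves.

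The mitochondrial ribosome translates the few mRNAs encoded in mitochondrial DNA, all of them for proteins of the respiratory chain and the ATP synthase. Its RNA comes from the mitochondrial genome and its proteins from nuclear genes, so that the proteins are made on cytosolic ribosomes and imported. Some of these proteins descend from bacterial ribosomal proteins, and others were added in the course of evolution and have no bacterial counterpart. In fibroblasts, as in other cells, the genes are expressed constitutively, and the transcription factors NRF1 and GABPA (also called NRF2) are known to bind many promoters of nuclear genes for mitochondrial proteins.

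Total counts on genes ran from 17318372 to 28208576 per library. Fibroblast markers were abundant, with all 10 at or above 1 CPM in some library and a summed level between 9420 and 19600 CPM in high libraries and between 11600 and 13400 CPM in low libraries. CPM are counts relative to an effective library size that TMM factors set. Of 7 epithelial markers, Krt18 was called higher, and the summed level of the list ran from 121 to 512 CPM in high and from 454 to 673 CPM in low libraries. Of 4 adipocyte markers found, Fabp4 was called higher and Adipoq, Plin1 and Cidec were under 1 CPM everywhere, and the sums did not overlap (4.26 to 79.8 CPM in high and 0.911 to 3.43 CPM in low libraries). Of 5 neural markers, Tubb3, on chromosome 8, was called lower, and Sox2, Sox10 and Gfap were under 1 CPM. The summed level of the neural list did not follow Tubb3, with 39.2 to 182 CPM in high and 35 to 93.6 CPM in low libraries. In the endothelial, immune, muscle, chondrocyte and pluripotent lists 0 genes were called. The part of these markers in the results was not tested. The ribosomal RNA-like transcript Gm42418 had at most 1154 CPM in high libraries, against 40941 CPM in low 2, 8017 CPM in low 3 and at most 1616 CPM in the other low libraries. In bulk RNA, fewer cells that express a gene and less RNA of it per cell cannot be told apart.

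Upstream sequence of 69 of the 78 genes was found in the RefSeq promoter table for GRCm38.p6. The last 250 bases before the start site are shown for 4 genes whose values the results turn on: the pair on chromosome 8, the gene furthest below 0 on chromosome 14, and the gene of chromosome 11 whose level varied most among clones. All 4 lie on the plus strand, in capitals stand matches to GABPA and NRF1 motifs, and the sequences run 5′ to 3′. Mrps31 is at chr8:22411090-22411339, Mrpl34 at chr8:71464676-71464925, Mrpl52 at chr14:54426659-54426908 and Mrpl45 at chr11:97315466-97315715.
Mrps31: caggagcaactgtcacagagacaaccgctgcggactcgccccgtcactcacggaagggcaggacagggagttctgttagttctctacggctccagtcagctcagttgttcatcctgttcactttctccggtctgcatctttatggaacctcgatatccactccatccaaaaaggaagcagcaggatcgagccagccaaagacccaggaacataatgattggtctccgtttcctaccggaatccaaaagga
Mrpl34: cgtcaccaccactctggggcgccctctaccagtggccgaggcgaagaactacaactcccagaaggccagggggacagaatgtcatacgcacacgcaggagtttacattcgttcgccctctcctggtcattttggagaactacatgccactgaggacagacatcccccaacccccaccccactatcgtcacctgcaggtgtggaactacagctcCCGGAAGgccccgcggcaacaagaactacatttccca
Mrpl52: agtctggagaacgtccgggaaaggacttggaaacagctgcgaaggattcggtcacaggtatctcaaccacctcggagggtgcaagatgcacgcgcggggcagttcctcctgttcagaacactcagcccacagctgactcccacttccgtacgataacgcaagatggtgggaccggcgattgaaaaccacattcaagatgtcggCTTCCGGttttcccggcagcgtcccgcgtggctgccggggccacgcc
Mrpl45: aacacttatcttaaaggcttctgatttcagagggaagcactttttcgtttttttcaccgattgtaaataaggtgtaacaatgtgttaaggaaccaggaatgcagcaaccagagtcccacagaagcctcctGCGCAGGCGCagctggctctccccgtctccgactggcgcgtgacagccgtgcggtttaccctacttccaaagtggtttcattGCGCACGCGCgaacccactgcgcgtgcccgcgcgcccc

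In these windows the GABPA motif CCGGAAG starts 37 bases before the start site of Mrpl34, and its reverse complement 47 bases before that of Mrpl52. The NRF1 motif, which is GCGCA, any base and then GCGC, starts 120 and 38 bases before the start site of Mrpl45. The Mrps31 window holds no match to these motifs, nor to YY1 (AAGATGGC), SP1 (GGGCGG) or the E-box (CACGTG), all searched on both strands, and 220 of its bases lie in an exon of Gm45453, a gene marked as still to be verified in GENCODE M21. In the 250 bases before the start site the GABPA motif was present for 18 of 69 genes for mitochondrial ribosomal proteins (26.1%), against 10.2% of 17492 genes in the promoter table. The NRF1 motif was there for 10 (14.5%, against 5.84% of all genes) and the YY1 motif for 4 (5.80%, against 1.77%). SP1 (47.8%, against 45.8%) and the E-box (7.25%, against 7.61%) were about as frequent as among all genes. In the table's whole window of 300 bases, which also holds the 50 bases after the start site, there were 26 genes with GABPA (37.7%, against 12.95%), 13 with NRF1 (18.8%, against 7.17%) and 12 with YY1 (17.4%, against 3.57%). The last 3 letters of the GABPA motif are the first 3 of the YY1 motif, so 1 stretch can hold both. A match is a string of letters and not a measured binding site.

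As a share of all counts, RNA for mitochondrial ribosomal proteins differed between high and low populations by less than the spread among clones. In the high populations 1 gene of the small subunit was lower. The family took 0.548% ± 0.043 of all counts in high libraries and 0.518% ± 0.044 in low libraries (SD, n = 5 each). The difference was smaller than either SD, which describes single libraries and not the error of this difference. Of the 77 genes with enough counts to be tested, 0 rose and 1 fell at an adjusted p under 0.05 (two-sided edgeR quasi-likelihood F-test with Benjamini-Hochberg adjustment over all genes). Over all 12964 genes tested, 258 rose (1.99%) and 372 fell (2.87%), together 4.86%. The gene that fell was Mrps31, which encodes a small subunit protein without a bacterial counterpart. At an unadjusted p under 0.05 there were 3 of the 77, Mrps31 below and Mrpl36 and Mrpl41 above, against 21.6% of all genes. DESeq2 (10.2% of all genes called) and limma-voom (5.30%) also called Mrps31 alone.

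The fold changes of the family lay close to 0. Their median was -0.01 on the log2 scale (high over low), with 36 genes positive and 41 negative, and over all tested genes it was 0.02. Fold changes ran from -0.76 for Mrps31 to 0.66 for Mrpl36. Their median size regardless of sign was 0.14, against 0.28 over all tested genes. The standard error had a median of 0.20 (0.23 over all tested genes), which limits how small a change could be detected. The median level was 22.2 CPM per kilobase of exon in the family and 6.85 over all tested genes. All genes are thus not matched to the family in level, and the part of level in these comparisons was not tested. The 95% interval lay within a 2-fold change in either direction for 71 of the 77 genes, against 8031 of all 12964 tested genes. It lay within a 1.5-fold change for 41 genes, so for the other 36 a change of that size is inside the interval or beyond.

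**Figure D1:**
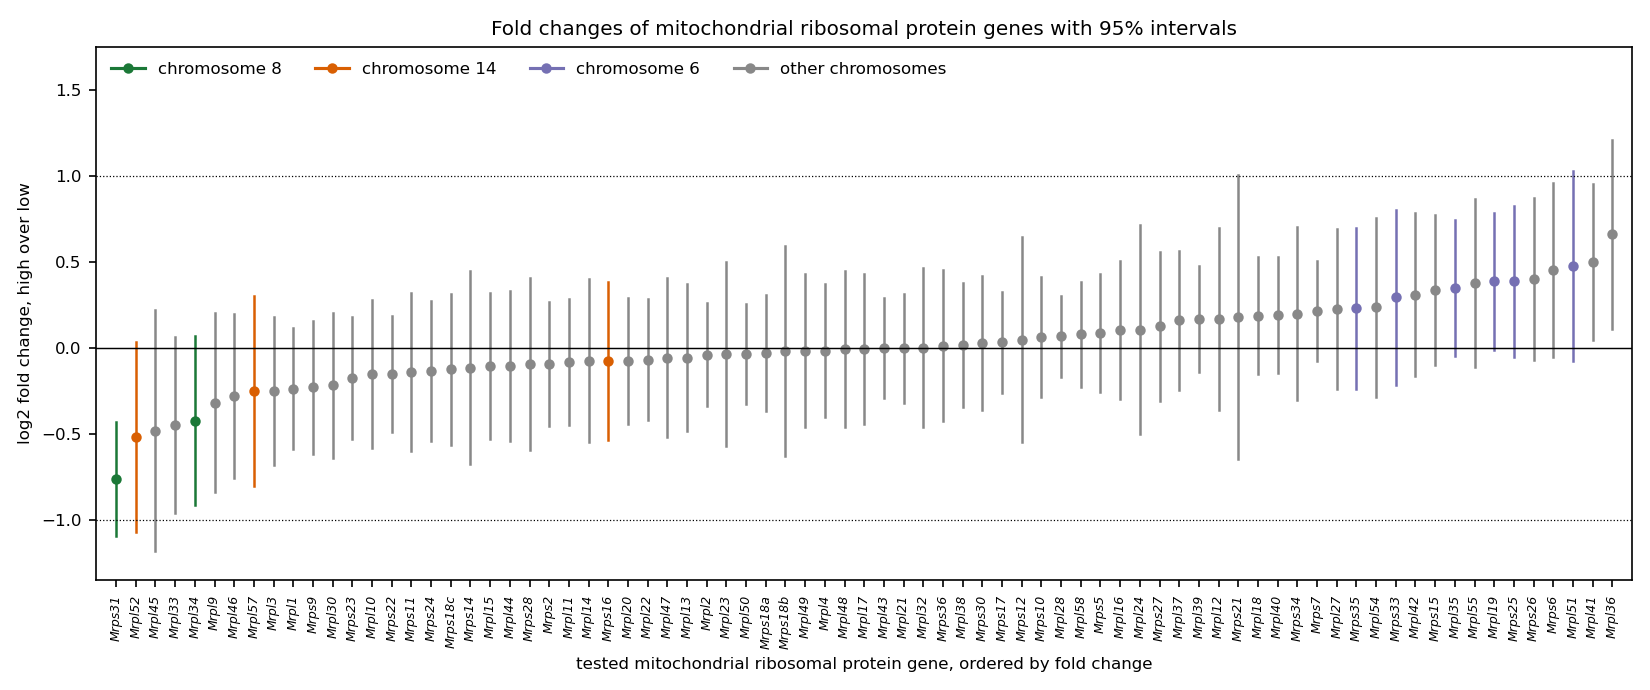
Log2 fold change (high over low, vertical axis) of the 77 tested genes in order, with bars for the 95% interval and dotted lines at a 2-fold change. Mrps31 at the left end is the gene that was called, at -0.76, and the 6 genes of chromosome 6 all lie above 0.

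Mrps31 (ENSMUSG00000031533, chromosome 8, 22411361 to 22429665 in GRCm38, plus strand) had 34.7, 35.7, 30.8, 35.1 and 22.0 CPM in high 1 to high 5. In low 1 to low 5 it had 56.2, 47.7, 54.7, 53.7 and 55.9 CPM. Every high library lay below every low library, and high 5 was lowest by a wide margin. The fold change was -0.76 (SE 0.15, edgeR adjusted p = 0.0226), and groups without overlap were seen for this gene alone among the 77 (1.30%), against 929 of all tested genes (7.17%). The other genes of chromosome 8 had a median fold change of -0.59. The median deviation of chromosome 8 genes from their own medians was -0.34, -0.18, -0.37, -0.15 and -0.50 in high 1 to high 5, and 0.28, 0.42, 0.26, 0.19 and 0.17 in low 1 to low 5. With an offset per library for each chromosome, Mrps31 was at -0.21 (SE 0.13, adjusted p = 0.444) and was not called, and that fit called 1.27% of all genes. Its call was also lost without high 3 (adjusted p = 0.0540), without low 1 (0.0531) and without low 3 (0.0510), and without both low 2 and low 3 (0.0946), while the fold change stayed between -0.74 and -0.79 in these 4 fits.

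The other gene of the family on chromosome 8, Mrpl34, encodes a large subunit protein with a bacterial counterpart. It had 69.5, 48.4, 63.2, 73.5 and 41.8 CPM in high 1 to high 5, and 104.8, 90.7, 89.8, 57.5 and 54.4 CPM in low 1 to low 5. Low 4 and low 5 lay inside the range of the high libraries, unlike for Mrps31. The fold change was -0.42 (SE 0.23, adjusted p = 0.307), and it turned to 0.16 with the chromosome offset. Within 1 Mb of Mrpl34, 48 neighbouring genes had median deviations from -0.58 in high 5 to -0.05 in high 1, against 0.58 in low 2, 0.53 in low 1 and 0.01 in low 5. The neighbours of Mrps31, 17 genes, ran from -0.65 in high 1 to 0.39 in low 2.

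Chromosome 14 carries 3 genes of the family, all with a negative fold change and none called: Mrpl52 (-0.52, SE 0.25, adjusted p = 0.262), Mrpl57 (-0.25) and Mrps16 (-0.07). Mrpl52 and Mrpl57 encode large subunit proteins without bacterial counterparts, and Mrps16 a small subunit protein with one. The other genes of this chromosome had a median of -0.44. Mrpl52 had 54.9, 31.7, 51.6, 51.0 and 32.5 CPM in high 1 to high 5, and 73.4, 51.8, 69.0, 87.4 and 35.6 CPM in low 1 to low 5. High 2, high 5 and low 5 shared the low end, so the groups overlapped. With the chromosome offset Mrpl52 was at -0.11, Mrpl57 at 0.14 and Mrps16 at 0.31.

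Chromosome 6 carries 7 genes of the family, and all 6 that were tested were positive: Mrpl51 (0.48), Mrps25 (0.39), Mrpl19 (0.39), Mrpl35 (0.35), Mrps33 (0.29) and Mrps35 (0.23). None passed the test, with adjusted p between 0.245 for Mrpl19 and 0.588 for Mrps35. Their median was 0.37, and the other genes of the chromosome had a median of 0.34, of which 78.0% were positive. Mrpl51, a large subunit protein without a bacterial counterpart, had 166.8, 71.3, 126.3, 86.0 and 71.1 CPM in high 1 to high 5, and 92.3, 58.2, 66.4, 68.5 and 88.7 CPM in low 1 to low 5. Mrpl19, whose bacterial counterpart sits where the subunits meet, had 62.2, 53.4, 49.1, 47.8 and 55.2 CPM in the high libraries and 37.7, 28.1, 36.6, 56.3 and 46.1 CPM in the low libraries. High 1 was the highest library for each of the 6 genes, and low 2 the lowest of the low group for each. The chromosome 6 deviation was 0.45 in high 1, -0.04 in high 4 and -0.14 in low 2. With the chromosome offset these 6 genes lay between -0.10 and 0.16.

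Mrpl53, the seventh gene of chromosome 6, was not tested, with 1 count in high 5 and 0 in the other libraries. Of its exon bases 88.0% lie in exons of Gm42688 on the same strand, which had a mean of 6.96 CPM, so its own level is uncertain.

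**Figure D2:**
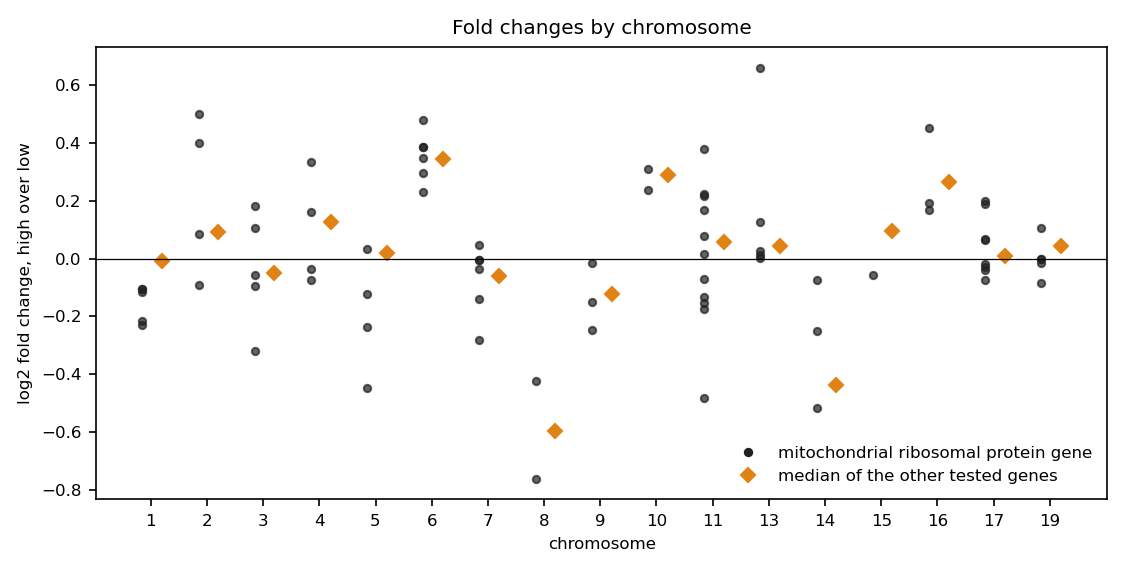
Log2 fold change (high over low) of each tested gene for a mitochondrial ribosomal protein (dots) by chromosome, beside the median of the other tested genes of that chromosome (diamonds). On chromosomes 6, 8, 10 and 14 the dots lie on the same side of 0 as the diamond, at 0.34, -0.59, 0.29 and -0.44. The same holds on chromosomes 1, 9, 13 and 16, with diamonds at -0.01, -0.12, 0.04 and 0.27.

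The largest positive fold changes elsewhere were those of Mrpl36 (0.66, SE 0.25, adjusted p = 0.151) and Mrpl41 (0.50, SE 0.21, adjusted p = 0.188), neither called. Mrpl36, on chromosome 13, encodes a large subunit protein with a bacterial counterpart. It had 37.4, 33.1, 42.7, 40.4 and 45.6 CPM in high 1 to high 5, and 35.4, 27.8, 27.8, 23.7 and 11.3 CPM in low 1 to low 5. Low 1 lay above high 2, and low 5 stood far below all other libraries. Mrpl41, on chromosome 2, had 53.3, 32.1, 54.6, 54.9 and 30.3 CPM in the high libraries and 30.1, 25.9, 35.4, 30.0 and 37.9 CPM in the low libraries. High 1, high 3 and high 4 stood above the rest, and high 2 and high 5 lay within the low range.

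Also positive and not called were Mrps6 (0.45), Mrps26 (0.40) and Mrpl55 (0.38). Mrps6, a small subunit protein with a bacterial counterpart, was highest in high 4, at 110.8 CPM. Some exon bases of Mrps6 are shared on the same strand with Slc5a3 (10.4%) and with Gm49711 (19.9%), so reads of these genes may be mixed. Mrpl55 had 26.6 to 38.0 CPM in the high libraries, against 13.9 CPM in low 2, 17.5 CPM in low 3 and 26.5 to 29.9 CPM in the other low libraries. On the negative side, outside chromosomes 8 and 14, were Mrpl45 (-0.48), Mrpl33 (-0.45), Mrpl9 (-0.32) and Mrpl46 (-0.28), with adjusted p between 0.298 for Mrpl33 and 0.496 for Mrpl46. Mrpl33 and Mrpl9 have bacterial counterparts, and Mrpl46 belongs to the central protuberance, the crest of the large subunit. Mrps11, another gene of the family, runs the other way from a start site 412 bases from that of Mrpl46, and the 2 genes overlap there. Of the exon bases of Mrpl46, 12.2% lie opposite exons of Mrps11. Mrps11 was at -0.14.

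**Figure D3:**
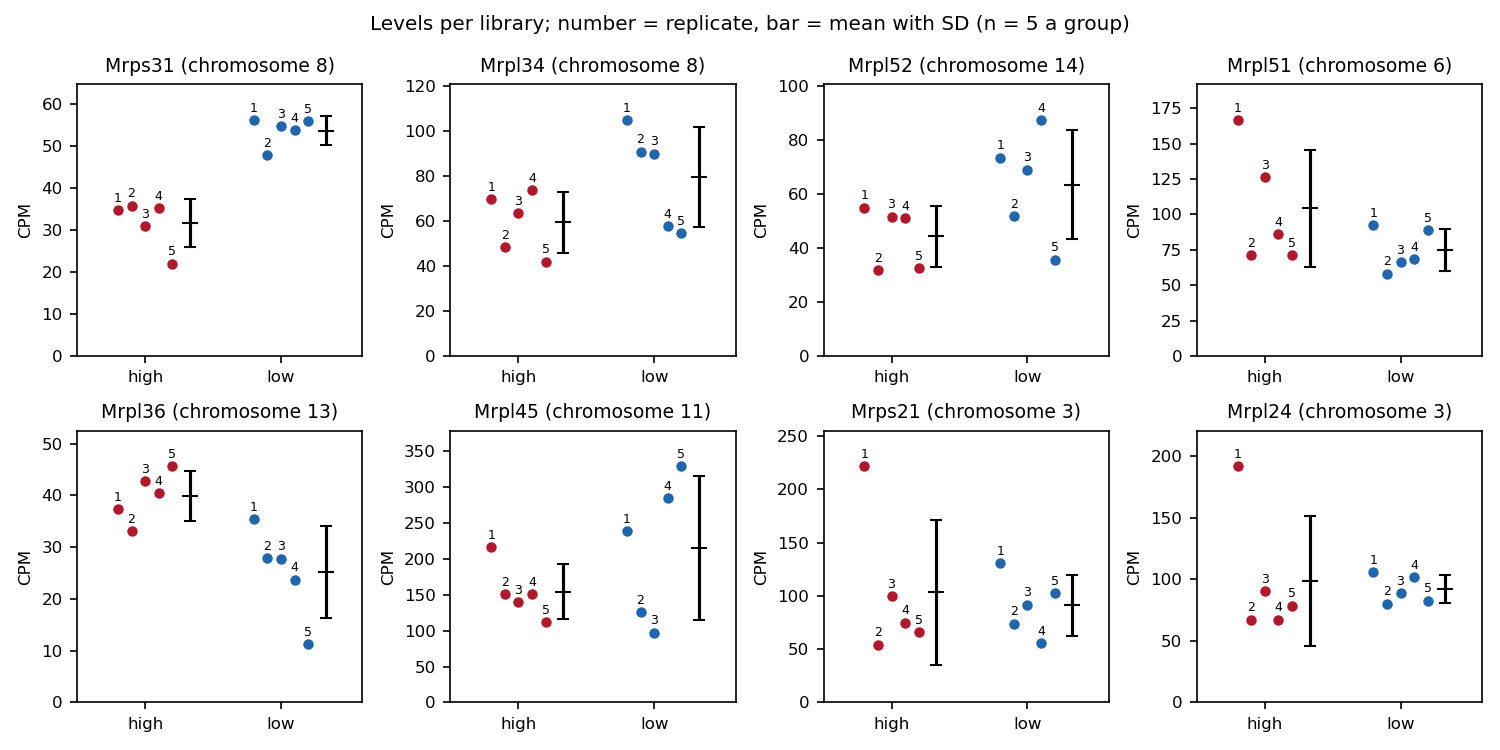
CPM (vertical axis, from 0) of 8 genes in each library, high left of low, with the replicate number above each point and bars for the mean and SD of 5 libraries. Only for Mrps31 do the 2 groups not overlap, and Mrps21 and Mrpl24 each have high 1 far above the rest, at 221.5 and 191.9 CPM.

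Grouped by subunit and role, each set of genes had 0 or 1 member called. The 48 tested large subunit genes had a median of -0.01 and the 29 small subunit genes 0.03, with 0 and 1 called, and 2 and 1 at an unadjusted p under 0.05. Over all genes 4.86% were called and 21.6% had an unadjusted p under 0.05. Symbols do not always match the place of the protein: Mrps18a and Mrps30 belong to the large subunit, and Mrps36 is known as a part of the oxoglutarate dehydrogenase complex and not of the ribosome. These 3 were at -0.03, 0.03 and 0.01, and placing them by structure left the medians at -0.01 for 50 large and 0.04 for 26 small subunit genes. The 44 genes listed with a bacterial counterpart had a median of -0.04 and the 32 not so listed 0.02. Of the related genes Mrps18a, Mrps18b and Mrps18c, only Mrps18c was on that list.

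Of the structural groups, the stalk (Mrpl10, Mrpl11 and Mrpl12, which recruits translation factors) had 0 of 3 genes called, with a median of -0.08. The genes at the polypeptide exit had 0 of 7 called and a median of -0.06. The central protuberance had 0 of 6 called and a median of 0.10. Of 13 genes in which mutations are known to cause human mitochondrial disease, among them Mrps22 and Mrpl3, 0 were called and the median was -0.09. In these 4 groups 0 genes had an unadjusted p under 0.05 in edgeR (against 21.6% of all genes). DESeq2 and limma-voom called 0, against 10.2% and 5.30% of all genes. Over all genes edgeR called 4.86%, so that 0 called in groups of 3 to 13 genes says little about them.

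The summed level of the large over the small subunit genes, per length of exon, as a log2 ratio, ran from 1.22 in high 1 to 1.49 in high 2. It was 1.42, 1.46, 1.41, 1.46 and 1.45 in low 1 to low 5. High 1 was lowest and the high libraries spread more (1.39 ± 0.11, against 1.44 ± 0.02 in low libraries, SD, n = 5 each), with a difference of -0.05 that is inside the spread of the high libraries. The small subunit sum of high 1 holds Mrps21 at 299.7 CPM per kilobase of exon. This gene was at 73.5 to 135.1 in the other high libraries and at 75.6 to 177.1 in low libraries. Its part in the low ratio of high 1 and in the wider spread was not tested. Both the order and the direction depend on the summary: with the median gene of each subunit in place of the sum, high 1 was the highest library (1.23) and the difference was 0.22 (0.78 ± 0.26 in high and 0.56 ± 0.17 in low libraries).

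Levels per length differed widely among the genes. In RPKM, which are CPM divided by the exon length in kilobases, the median gene was at 22.2. The highest were Mrpl54 (191.5), Mrps21 (131.4) and Mrpl14 (121.0), and the lowest tested were Mrpl23 (1.77), Mrpl48 (3.03) and Mrpl33 (3.66). Mrpl54 had 207.2 ± 77.8 RPKM in high libraries and 175.9 ± 14.9 RPKM in low libraries (SD, n = 5 each). Mrpl54 and Mrpl14 encode large subunit proteins, and Mrpl23 lies at the exit of the peptide tunnel. The order depends on the transcript length used: 8 of the 10 highest genes were also among the 10 highest with the longest transcript in place of all exons. For the lowest genes the annotated exons are long, and Mrpl48 also shares exon bases on the opposite strand with Rab6a (8.69%). None of these 6 was called, and the adjusted p ran from 0.298 for Mrpl33 to 0.992 for Mrpl48.

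The spread among clones of 1 group was larger than the typical difference between the groups. The SD within groups had a median of 0.33 (log2 CPM) over the 77 genes, where the median size of the fold change was 0.14. The same held over all tested genes, at 0.37 and 0.28. An SD is the spread of single libraries and not the error of a group mean. In the family the SD within groups was largest for Mrps21, Mrpl45, Mrps18b, Mrps12 and Mrpl24. Single libraries stood out across the family: the lowest value was held by high 5 for 20 of the 77 genes, by high 2 for 14, by high 1 for 12 and by low 2 for 16. Highest values were held by high 1 and high 4 for 15 genes each, by low 5 for 13, and by low 2 for 0. In high 4, 56 of the 77 genes were above their median and the median deviation was 0.11, against 10 genes and -0.21 in low 2.

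**Figure D4:**
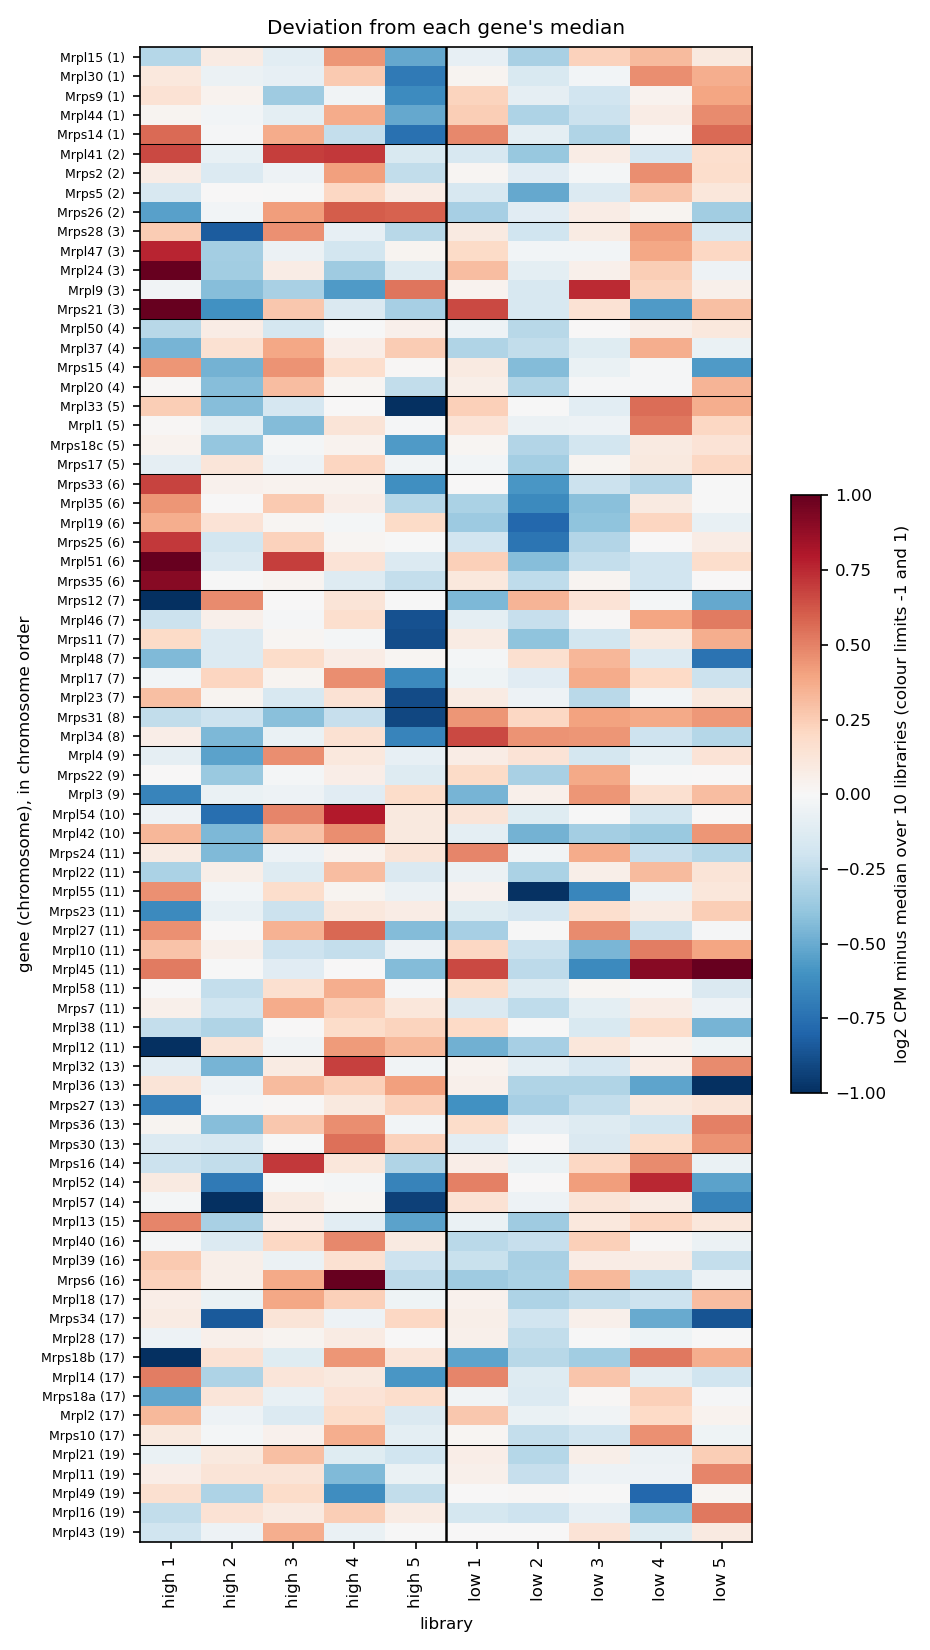
Log2 CPM minus the median over 10 libraries for each tested gene (rows, in chromosome order) and library (columns, high left of low), with colours limited at -1 and 1. The 6 genes of chromosome 6 are high together in high 1, the pair of chromosome 8 is lower in high than in low 1 to low 3, and in low 2 only 10 of 77 genes lie above their median.

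Mrps21, a small subunit protein with a bacterial counterpart, had 221.5, 54.3, 99.8, 74.9 and 65.7 CPM in high 1 to high 5, and 130.9, 74.1, 91.7, 55.9 and 102.2 CPM in low 1 to low 5. Mrpl24, which lies near the exit of the peptide tunnel, had 191.9 CPM in high 1 and 67.2 to 90.3 CPM in the other high libraries, against 80.2 to 106.0 CPM in low libraries. Both genes lie on chromosome 3, and high 1 was far above the rest for both. Low 1 was the highest of the low libraries for both, at 130.9 and 106.0 CPM. The chromosome 3 deviation was 0.44 in high 1, and genes within 1 Mb were at 0.47 around Mrps21 and 0.30 around Mrpl24, smaller than the genes' own 1.42 and 1.16. Without high 1 the fold changes of Mrps21 and Mrpl24 were -0.30 and -0.28 in place of 0.18 and 0.11, with none called.

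In the same library Mrpl12, Mrps18b and Mrps12 were low. Mrpl12, a stalk protein also reported to bind the mitochondrial RNA polymerase, had 55.9 CPM in high 1 and 111.2 to 153.4 CPM in the other high libraries, against 81.6 to 123.2 CPM in low libraries. Mrps12, a protein of the decoding centre, had 13.6 CPM in high 1 and 29.6 to 41.2 CPM in the other high libraries, against 20.7 to 37.5 CPM in low libraries. Mrps18b had 22.4 CPM in high 1 and 41.5 to 61.3 CPM in the other high libraries, against 31.2 to 64.9 CPM in low libraries. High 1 was the lowest library for all 3 genes, which lie on chromosomes 11, 7 and 17. Among low libraries, low 1 was the lowest for Mrpl12 (81.6 CPM) and Mrps18b (31.2 CPM). For Mrps12 low 5 was the lowest (20.7 CPM), with low 1 at 21.6 CPM. Over all tested genes the deviations of high 1 and low 1 from their group means correlated at 0.455.

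Mrpl45, which lies at the peptide exit and helps to hold the ribosome at the inner membrane, varied most among low libraries. It had 216.1, 150.9, 139.6, 151.2 and 112.0 CPM in high 1 to high 5, and 238.7, 126.0, 97.3, 284.7 and 328.7 CPM in low 1 to low 5. Low 1, low 4 and low 5 exceeded every high library and low 3 was below every one. Mrpl10, a stalk protein encoded less than 1 Mb away on chromosome 11, had 208.1, 176.6, 148.2, 144.8 and 165.3 CPM in the high libraries and 196.9, 147.2, 124.4, 243.8 and 224.4 CPM in the low libraries. Low 3 was again the lowest library, and low 4 and low 5 were again the highest pair, with low 4 above low 5 for Mrpl10 and below it for Mrpl45.

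The genes around them deviated alike. The 31 neighbours of Mrpl45 had median deviations of 0.30 in high 1, 0.31 in low 1, 0.63 in low 4, 0.36 in low 5 and -0.59 in low 3. For Mrpl10, 35 neighbours were at 0.30, 0.33, 0.64, 0.48 and -0.35 in the same libraries, and the windows of both genes overlap. Mrpl45 itself was at 1.12 in low 5, above its neighbours. Over the 74 genes with enough neighbours, subtracting the neighbours' deviation made the spread within groups smaller for 48 (64.9%). It was smaller for 63.6% of 8872 other genes with a mean log2 CPM above 3, a share close to that of the family.

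**Figure D5:**
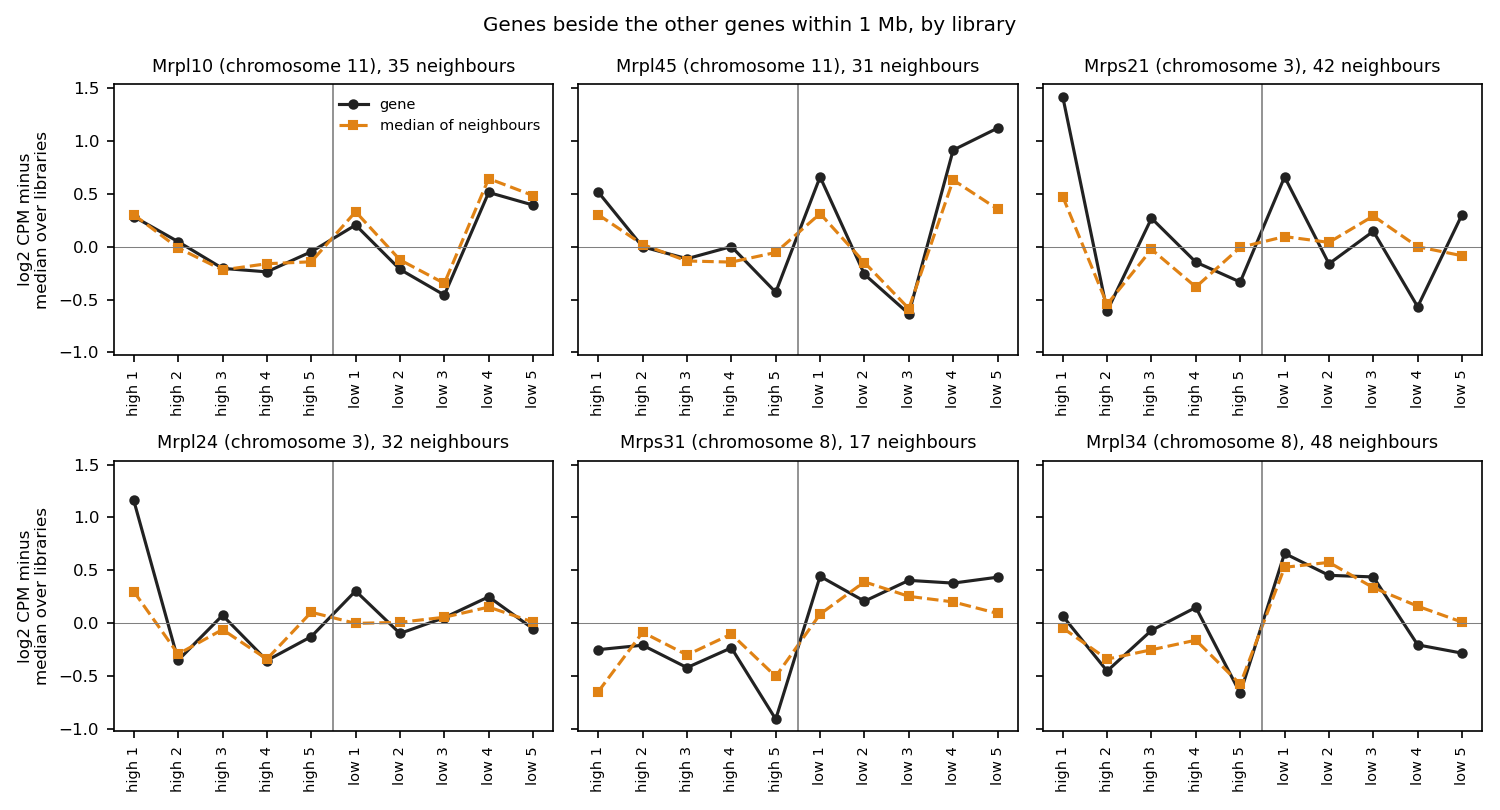
Log2 CPM minus the median over libraries (vertical axis) in each library for 6 genes (circles) and the median of the other genes within 1 Mb (squares). Mrpl10 and Mrpl45 follow their neighbours, with neighbours at 0.64 and 0.63 in low 4, while Mrps21 in high 1 (1.42) lies above its neighbours (0.47).

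Some counts may hold reads of other genes. Exons of 33 of the 78 genes overlap those of another gene, and no source used here gives the strand setting of the authors' counting. For Mrps25, 69.8% of the exon bases lie opposite Nr2c2, and for Mrps34, 63.4% lie opposite Mapk8ip3, which had 1.67 times its mean level. On the same strand, 37.0% of the exon bases of Mrps34 are shared with Nme3, which had 0 CPM. Others on the same strand are Mrps18c with Gm43511 (23.2%) and Mrps24 with Urgcp (15.4%). Start sites of 33 genes lie within 1000 bases of a gene that runs the other way, among them Mrpl51 beside Ncapd2 (100 bases apart, 0.48 and 0.35) and Mrpl57 beside Ska3 (49 bases apart, -0.25 and -0.61). At least 100 bases at 95% identity or more were shared between 25 of the 78 genes and a transcript of another gene, such as the pseudogenes Gm6181 for Mrps21 and Gm6434 for Mrpl41.

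The other genes of the pathway were set beside the family. Of 5 ribosomal proteins with other names (Dap3, Ptcd3, Chchd1, Aurkaip1 and Gadd45gip1), 0 were called. DESeq2 called 1 and limma-voom 0, against 10.2% and 5.30% of all genes. There were 2 at an unadjusted p under 0.05, against 21.6% of all genes. Those 2 were Gadd45gip1 on chromosome 8 (-0.78, adjusted p = 0.112) and Chchd1 on chromosome 14 (-0.52, adjusted p = 0.0729). Of 27 genes for assembly of the mitochondrial ribosome and modification of its RNA, 1 rose and 1 fell (7.41% called, against 4.86% of all genes). DESeq2 called 4 of them and limma-voom 2, against 10.2% and 5.30% of all genes. Rpusd3, a pseudouridine synthase on chromosome 6, rose by 0.74 (SE 0.15, adjusted p = 0.0249), with 17.3 ± 1.46 CPM in high and 10.4 ± 0.481 CPM in low libraries (SD, n = 5 each). Ddx28, an RNA helicase of large subunit assembly on chromosome 8, was at -0.87 (SE 0.18, adjusted p = 0.0226), with 21.1 ± 4.92 CPM in high and 38.6 ± 4.22 CPM in low libraries. With the chromosome offset Rpusd3 was at 0.44 (adjusted p = 0.132) and Ddx28 at -0.31 (adjusted p = 0.292). The Rpusd3 call was lost without high 2, high 3, low 1, low 2 or low 3 (adjusted p from 0.0521 to 0.0569), and the Ddx28 call without low 1, low 2 or low 3 (0.0505 to 0.0569).

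Of 16 translation factors and related genes, 0 rose and 1 fell (6.25%, against 4.86% of all genes). DESeq2 called 2 and limma-voom 1, against 10.2% and 5.30% of all genes. The gene that fell was Oxa1l on chromosome 14, the membrane insertase that binds the ribosome (-0.68, adjusted p = 0.0314). It was not called with the offset (adjusted p = 0.261). Its call was also lost without high 2, high 3, high 5, low 3, low 4 or low 5 (adjusted p from 0.0546 to 0.0674). Of 14 tested regulators of nuclear genes for mitochondria, 0 were called. An unadjusted p under 0.05 was found for 1, Polrmt (0.51, adjusted p = 0.141), against 21.6% of all genes. Of these 14 regulators, DESeq2 called 0 and limma-voom 0. Among them were Nrf1 at 0.16, Gabpa at 0.09 and Yy1 at -0.08. The fold changes of the mitochondrial ribosomal RNAs had opposite signs in poly(A) RNA: mt-Rnr2, of the large subunit, was at 0.99 (adjusted p = 0.0326) and mt-Rnr1, of the small subunit, at -0.95 (adjusted p = 0.0901, not called). DESeq2 called mt-Rnr1 (adjusted p = 0.0290), as did edgeR without high 1 (0.0464) and with the replicate number as a block (0.0358). The mt-Rnr2 call was lost without high 2, high 3 or any of low 1 to low 4 (adjusted p from 0.0538 to 0.0724), without both low 2 and low 3 (0.125), with the block (0.0737) and with the chromosome offset (0.0541). In the offset fit mtDNA genes have no offset of their own, and mt-Rnr2 stayed at 0.99.

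Genes for the proteins of the cytosolic ribosome lay mostly below 0. Of 78 tested, 74 had a negative fold change (94.9%, against 47.7% of all genes). In edgeR 4 fell and 0 rose (5.13% called, against 4.86% of all genes). DESeq2 called 7 and limma-voom 4, against 10.2% and 5.30% of all genes. Among the 4 that fell were Rpl15 and Rps24 on chromosome 14 (-0.77 and -0.67) and Rpl29 on chromosome 9 (-0.58). None of the 4 was called with the chromosome offset. Among the 10 fits that left out 1 library, the call of Rpl15 held in 3 (without high 1, high 4 or low 2), that of Rps24 in 2 (without high 4 or low 2) and that of Rpl29 in 1 (without high 4), with adjusted p of at most 0.106 in the rest. Their median was -0.31, against -0.01 for the mitochondrial ribosome, and the difference between the families was not tested. The median deviation per library of the cytosolic family was -0.16 ± 0.22 in high and 0.12 ± 0.20 in low libraries, and of the mitochondrial family 0.01 ± 0.08 in high and 0.00 ± 0.12 in low libraries (SD, n = 5 each).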

How the data were processed

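Polyadenylated RNA of 10 fibroblast populations, 5 high and 5 low heteroplasmy, was measured. The authors deposited raw counts of reads for each Ensembl gene and library. Per the submitters' processing notes the build was GRCm38 and the software STAR 2.7.8a, R 4.2.1 and DESeq2 1.36.0. No source used here gives the counting tool, its strand setting or the annotation release, although per the labels' protocols the library kit keeps strand. The deposited normalized table and the sample sheet were not used as measurements. The labels name the populations as biological replicates.

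GENCODE M21 (GRCm38) supplied the symbols, and the 195 identifiers it did not name held at most 0.0701% of any library. Counts were tested with edgeR 4.0.16 in R 4.3.3: default filter by group, TMM scaling, robust quasi-likelihood F-test with group as the only term, and Benjamini-Hochberg adjustment over all tested genes at 0.05, two-sided. The log2 fold change is that of high over low, with an SE equal to its size over the root of F. Log2 CPM carry a prior count of 2. RPKM are CPM per kilobase of merged exons. A deviation is the log2 CPM minus the gene's median over the libraries, and a chromosome's or neighbourhood's deviation is the median of this over genes there whose mean log2 CPM exceeded 3. Neighbours lie within 1 Mb. The chromosome offset adds each library's deviation of the chromosome to the model, and mtDNA genes have none. Near copies were found with blastn 2.17.0, and the fit was tested on simulated data. Promoter sequences are from RefSeq on GRCm38.p6. Python 3.11.15, pandas 2.3.3 and matplotlib 3.10.9 served for sequences and figures.

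The genes named were those called, the 8 highest and 8 lowest fold changes, the 3 highest and 3 lowest levels per length, the 5 largest spreads within groups, all on chromosomes 8, 14 and 6, the untested gene, Mrps18a, Mrps30, Mrps36 and Mrpl12, up to 4 called genes of each further list, and both ribosomal RNAs. One called gene of the cytosolic ribosome is counted with its list and is otherwise not reported here. Others, such as Mrpl10, were chosen after their values were seen. The members, lists and most tests were chosen with earlier results of these data known. The alternatives tried were scaling by RLE, by the upper quartile or without mtDNA genes, no filter, 1 CPM in 5 libraries, DESeq2 1.42.0, limma-voom (limma 3.58.1), the replicate number as a block, the chromosome offset, each library left out, low 2 and low 3 left out, the ratio of median levels, and the longest transcript as length.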

Additional observations from a re-analysis of the deposited data

Results flagged for a closer look

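In 92 groups of 5 values that were examined, 4 held a single library with an outlying gap to the next value. The gap, as a share of the range, was above the 95% limit of Dixon's test. Chance flags about 1 group in 20 where genes are not chosen by their values. Mrps21 and Mrpl24 were named for their large spread within groups, so that rate does not apply to them. For Mrps21 in the high group, high 1 had 221.5 CPM with a gap of 0.728 of the range. For Mrpl24 in the high group, high 1 had 191.9 CPM with a gap of 0.814. For Mrps35 in the high group, high 1 had 74.6 CPM with a gap of 0.835. For Mrps31 in the low group, low 2 had 47.7 CPM, the lowest of its group, with a gap of 0.711. In high 1 the genes of chromosome 3, where Mrps21 and Mrpl24 lie, deviated by 0.44 and those of chromosome 6, where Mrps35 lies, by 0.45, and the part of these shifts in the 3 values was not tested.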

How the results depend on the processing

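The count of 0 genes called higher was the same under all 21 alternatives. The count of 1 called lower became 0 with the offset per chromosome and without both low 2 and low 3, and ran from 0 to 1 with 1 library left out. The median fold change of the family ran from -0.05 to 0.03. The ratio of large to small subunit was -0.05 from summed levels and 0.22 from median levels, and ran from -0.08 to -0.01 with 1 library left out, an alternative chosen after seeing the data. Over all genes, leaving out 1 library gave 82 to 339 higher and 150 to 492 lower calls, DESeq2 733 and 907, the chromosome offset 85 and 79, no filter 201 and 295, and leaving out low 2 and low 3 14 and 42. The causes were not tested.

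Of the 77 tested genes, 16 changed sign with the chromosome offset, 1 to 7 in each other fit on all libraries, and 4 to 12 with 1 library left out, none of them called. The values below are those of the genes named by rule. With the offset they were 0.16 for Mrpl34, 0.14 for Mrpl57, 0.032 for Mrpl23, 0.11 for Mrpl48, 0.31 for Mrps16, -0.087 for Mrpl54, -0.018 for Mrps33, -0.10 for Mrps35, -0.047 for Mrps30 and -0.048 for Mrps36. Mrpl48, at -0.0055, was at 0.0010 with RLE, 0.015 with upper-quartile scaling, 0.012 without mtDNA genes, 0.014 with no filter, 0.0059 with DESeq2, 0.028 with limma-voom and 0.019 with the replicate block. Mrps18b was at 0.0041 with upper-quartile scaling and 0.0015 with no filter, and Mrpl24 at -0.013 with limma-voom and -0.014 with the block. Without low 2 and low 3, Mrpl48 was at 0.24, Mrps30 at -0.053 and Mrps36 at -0.084. With 1 library left out the ranges were -0.14 to 0.11 for Mrpl23, -0.14 to 0.10 for Mrpl48, -0.23 to 0.042 for Mrpl14, -0.30 to 0.35 for Mrps21, -0.16 to 0.15 for Mrps18b, -0.10 to 0.23 for Mrps12, -0.28 to 0.22 for Mrpl24, -0.29 to 0.024 for Mrps16, -0.028 to 0.31 for Mrps35, -0.087 to 0.077 for Mrps18a, -0.10 to 0.13 for Mrps30 and -0.10 to 0.14 for Mrps36.

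Same-numbered libraries paired only in part. Their deviations from the group means, over all tested genes, correlated at 0.455, -0.0528, 0.0326, 0.0739 and 0.160 for numbers 1 to 5. Of the 5 pairs 2, those of numbers 1 and 5, were best with their own number. With the number as a replicate block, 0 genes of the family rose and 1 fell, Mrps31, and 194 rose and 383 fell over all genes. In that fit mt-Rnr2 (adjusted p = 0.0737), Rpusd3 (0.0523) and Rpl29 (0.0569) were not called and mt-Rnr1 (0.0358) was. With 5 libraries a group and a median SE of 0.20, fold changes under about 1.5-fold were often inside the 95% interval.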

Other observations

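Chromosomes other than 6, 8 and 14 also carried runs of genes for mitochondrial ribosomal proteins with 1 sign. On chromosome 1 all 5 genes were negative, with a median log2 fold change of -0.11, against -0.01 for the other genes there, of which 48.1% were positive, and all 5 stayed negative with the offset. On chromosome 13 all 5 were positive, with a median of 0.03, against 0.04 for the other genes, of which 57.1% were positive. Mrpl32 (0.0009), Mrps36 (0.01) and Mrps30 (0.03) lay next to 0 there, and with the chromosome offset they were at -0.07, -0.05 and -0.05. On chromosome 16 all 3 were positive (0.19, against 0.27, with 75.7% of the other genes positive), and Mrpl39 and Mrpl40 turned to -0.04 and -0.01 with the offset. On chromosome 10 both were positive (0.27, against 0.29, with 82.0% of the others positive), and Mrpl54 turned to -0.09. On chromosome 9 all 3 were negative (-0.15, against -0.12, with 33.8% of the others positive), and Mrpl4 turned to 0.10 with the offset. The genes of chromosome 2 had a median of 0.24, against 0.09 for the other genes there. None of these genes was called, and no difference from the other genes of a chromosome was tested. Leaving out chromosomes 6, 8 and 14, 66 genes remained, with a median of -0.01. There were 0 called by edgeR, DESeq2 or limma-voom, against 4.86%, 10.2% and 5.30% of all genes. In edgeR 2 had an unadjusted p under 0.05, against 21.6% of all genes.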
